A study of Rattus norvegicus with 10 samples.

Results

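The aquaporins are the water channels of cell membranes, and together with the vasopressin V2 receptor they set how much water the kidney returns to the blood. The 8 genes described here are Aqp1, Aqp2, Aqp3, Aqp4, Aqp6, Aqp7, Aqp11 and the receptor gene Avpr2. They were chosen by exact gene symbol from the 32545 genes of the deposited table, where each symbol occurred in 1 row. All 8 passed the filter of a mean of at least 0.5 FPKM (fragments per kilobase of gene length, scaled to library size), which left 14508 genes.

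The samples were kidney cortex from Dahl salt-sensitive rats (SS/JrHsdMcwi), an inbred strain in which a salty diet raises blood pressure, and the labels give the genotype as wild type. In the HS + oxonic acid group, 5 libraries came from rats that ate 4% NaCl with 2% oxonic acid, an inhibitor of the urate-degrading enzyme uricase, for 3 weeks. In the HS vehicle group, 5 libraries came from rats on the 4% NaCl diet without it over the same 3 weeks. All animals had eaten 0.4% NaCl beforehand, had telemeters implanted at 8 to 9 weeks of age and had blood pressure recorded for 4 days before the switch. Both sexes entered the study and the labels give no sex for a sample. Because nothing ties each library to its own rat, p-values cover no more than the variation among these samples, and some of it may be technical.

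In principal cells of the collecting duct, vasopressin binds the V2 receptor, cAMP rises, and vesicles carrying AQP2 fuse with the apical membrane, while AQP3 and AQP4 let the water out on the basolateral side. AQP1 is the constitutive water channel of the proximal tubule and thin descending limb. AQP7 carries water and glycerol across the brush border of the straight proximal tubule, AQP11 lies in the endoplasmic reticulum of proximal tubule cells, and AQP6 lies in vesicles of intercalated cells, where in rat it conducts anions.

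In the deposited table Aqp2 (ENSRNOG00000054378) lies on chromosome 7 at 141237768 to 141245165 and Aqp6 (ENSRNOG00000053181) at 141258584 to 141261735, both on the plus strand. Aqp5 stands between them, 3878 bases after Aqp2 and 6005 bases before Aqp6. On chromosome 5 the minus strand holds Aqp7 (ENSRNOG00000009686, 57358327 to 57372239) and, 51494 bases further on, Aqp3 (ENSRNOG00000009797, 57423734 to 57429245). Aqp1 (ENSRNOG00000011648) is on chromosome 4 at 85551502 to 85569360, Aqp4 (ENSRNOG00000016043) on chromosome 18 at 6765945 to 6782996, and Aqp11 (ENSRNOG00000013358) on chromosome 1 at 162703442 to 162713610. Avpr2 (ENSRNOG00000059862) is on chromosome X at 156889410 to 156891213 and is listed on the minus strand, whereas RefSeq places it on the plus strand of GRCr8. The sources used here name no genome build for the table. None of the 8 genes overlapped another row of the table.

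The upstream sequences of 3 members are shown because Aqp2 and Aqp3 both had their 2 highest values in oxonic acid libraries 1 and 3 while Aqp6, the neighbour of Aqp2 in the chromosome 7 cluster, had its highest value in another library. Each is the 250 bases before the annotated start in RefSeq (GRCr8), 5′ to 3′, with the letters that matched a searched motif in capitals. Aqp2 is chr7:132590036-132590285 on the plus strand, Aqp3 is chr5:61040684-61040933 on the minus strand and Aqp6 is chr7:132610819-132611068 on the plus strand.
Aqp2: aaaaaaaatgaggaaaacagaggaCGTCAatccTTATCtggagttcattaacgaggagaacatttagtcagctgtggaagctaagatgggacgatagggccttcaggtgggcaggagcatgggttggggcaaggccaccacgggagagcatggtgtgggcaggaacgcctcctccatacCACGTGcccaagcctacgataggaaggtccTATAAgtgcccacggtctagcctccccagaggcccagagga
Aqp3: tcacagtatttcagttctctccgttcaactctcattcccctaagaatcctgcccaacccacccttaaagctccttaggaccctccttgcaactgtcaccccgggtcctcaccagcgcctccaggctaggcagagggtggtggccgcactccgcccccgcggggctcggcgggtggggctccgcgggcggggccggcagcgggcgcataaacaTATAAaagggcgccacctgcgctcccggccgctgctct
Aqp6: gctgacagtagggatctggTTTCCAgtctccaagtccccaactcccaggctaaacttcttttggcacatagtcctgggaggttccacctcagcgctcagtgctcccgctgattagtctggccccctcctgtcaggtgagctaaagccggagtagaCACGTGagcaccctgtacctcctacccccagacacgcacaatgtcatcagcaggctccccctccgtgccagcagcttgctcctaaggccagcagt
The motifs searched on both strands were the cAMP response element core TGACG, the GATA site GATAA, the TATA box TATAA, the NFAT family core TGGAAA, the E-box CACGTG and the AP-1 site TGANTCA. In Aqp2 the core TGACG, starting 226 bases before the start, and a GATA site at 217 were read on the strand opposite to the gene. They were followed by an E-box at 71, which reads the same on both strands, and a TATA box at 41 on the gene's own strand. Aqp3 held a TATA box at 38 on its own strand, and Aqp6 an NFAT family core at 231 on the opposite strand and an E-box at 95. Of 33469 rat promoter windows of the same length, 18.2% held TGACG, 23.5% GATAA, 23.97% TATAA, 19.7% TGGAAA, 5.59% CACGTG and 6.34% TGANTCA. No motif of the set stood in all 3 windows: the TATA box was in those of Aqp2 and Aqp3, and the E-box in those of Aqp2 and Aqp6. Aqp4 and Avpr2 also had their 2 highest values in oxonic acid libraries 1 and 3, and their windows are not shown. Entry 1 of Aqp4 held a TATA box at 77 and an NFAT family core at 184, both on the gene's own strand. It also held an NFAT family core at 44 on the opposite strand, and entry 2 held 1 at 72, also on the opposite strand. Avpr2 held a GATA site at 185 and the TATA box letters at 44, both on the strand opposite to the gene. RefSeq entries were found for 7 of the 8 members, Aqp7 being the exception, and a match describes letters only.

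Transcript levels per length spanned a wide range in the cortex. Aqp1 led with a mean of 616.4 FPKM over the 10 libraries and made up 58.8 to 64.9% of the summed FPKM of the 8 genes. Aqp7 followed with 105.1 FPKM, then Aqp2 with 83.0, Aqp3 with 66.4, Aqp6 with 63.0, Aqp11 with 40.3, Avpr2 with 11.4 and Aqp4 with 1.97 FPKM. Aqp1 lay above Aqp7 in 10 of 10 libraries, and so did Aqp6 above Aqp11, Aqp11 above Avpr2 and Avpr2 above Aqp4. The middle of the order was not settled: Aqp7 exceeded Aqp2 in 8 of 10 libraries, Aqp2 exceeded Aqp3 in 8, and Aqp3 exceeded Aqp6 in 6. Of the other aquaporin genes, Aqp5 measured 0.773 ± 0.145 FPKM under oxonic acid and 0.772 ± 0.232 FPKM under vehicle (SD, n = 5 each). The remaining 4 stayed below the filter, Aqp8 at 0 to 0.276 FPKM, Aqp9 at 0 to 0.245 and the lens channel gene Mip at 0 to 0.0800 FPKM, with Aqp12a at 0 reads in 9 of 10 libraries.

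The libraries held 14.5 to 18.5 M reads in genes. Reads per library ran from 22361 to 38057 for Aqp1 and from 69 to 414 for Aqp4, the shallowest member, for which 1 read was worth at most 0.0127 FPKM. Proximal tubule markers were abundant in every library, summing to 5986 to 6652 FPKM over 12 genes with oxonic acid and 5235 to 5960 FPKM under vehicle. Markers of the inner medulla and thin limb were uneven: their 10 measured genes summed to 121.6 to 302.9 FPKM under oxonic acid and 86.9 to 203.2 FPKM under vehicle. The urea transporter Slc14a2, made by inner medullary collecting duct cells, measured 15.98 FPKM in oxonic acid library 3 and at most 0.505 FPKM in the other 9 libraries. The mean log2 level of that marker list, taken relative to the 10 libraries, was 1.47 in oxonic acid library 3 and 0.59 in oxonic acid library 1, and at most 0.30 elsewhere. The numbers in the sample descriptions form 3 runs, which the labels do not call batches. Run A holds oxonic acid libraries 1, 2 and 3, run B oxonic acid library 4 with vehicle libraries 1, 2 and 3, and run C oxonic acid library 5 with vehicle libraries 4 and 5, so run A has no vehicle library to compare with.

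The comparison of HS + oxonic acid with HS vehicle asks how the transcripts of renal water transport go with uricase inhibition during salt loading. Higher mean values with oxonic acid were seen for 6 of the 8 genes (Aqp1, Aqp2, Aqp3, Aqp4, Aqp6 and Avpr2), as they were for 51.8% of all genes tested, and lower means for Aqp7 and Aqp11. None of the 8 passed limma's test on log2(FPKM + 0.5) after Benjamini-Hochberg adjustment over 14508 genes at a threshold of 0.05, a test that called 0% of all genes, as did voom on the recovered reads. At an unadjusted p under 0.05, limma counted 1377 of all genes and voom 1414. An unadjusted p under 0.05 was reached by 5 of the 8, Aqp1, Aqp2, Aqp3, Aqp4 and Aqp6, all of them higher, against 9.49% of all genes and 4.32% in that direction. The median log2 difference of the 8 genes was 0.33, against 0.0053 over all genes tested. In 0 of the 8 genes were the libraries of the groups fully apart, against 1.91% of all genes. The 5 with an unadjusted p under 0.05 became 2 (Aqp1 and Aqp6) without oxonic acid libraries 1 and 3, and 0 with the number runs as a factor. Over all 14508 genes, the count in the higher direction went from 627 to 461 and 502 in these fits. With the runs as a factor, run A adds nothing to the group difference because it has no vehicle library. In that fit limma's unadjusted p was 0.0555 for Aqp1 and 0.0520 for Aqp6. With a single library left out, the count of higher members was 3 without oxonic acid library 1 or 3 or vehicle library 1 or 2. It was 4 to 6 without any other, against 474 to 731 of all genes in that direction over these fits. Aqp11, lower, also had an unadjusted p under 0.05 without oxonic acid library 4 or vehicle library 2 or 5. In those fits 598 to 809 of all genes did so in the lower direction. In bulk tissue, fewer cells of a type and less RNA per cell cannot be told apart.

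**Figure D1:**
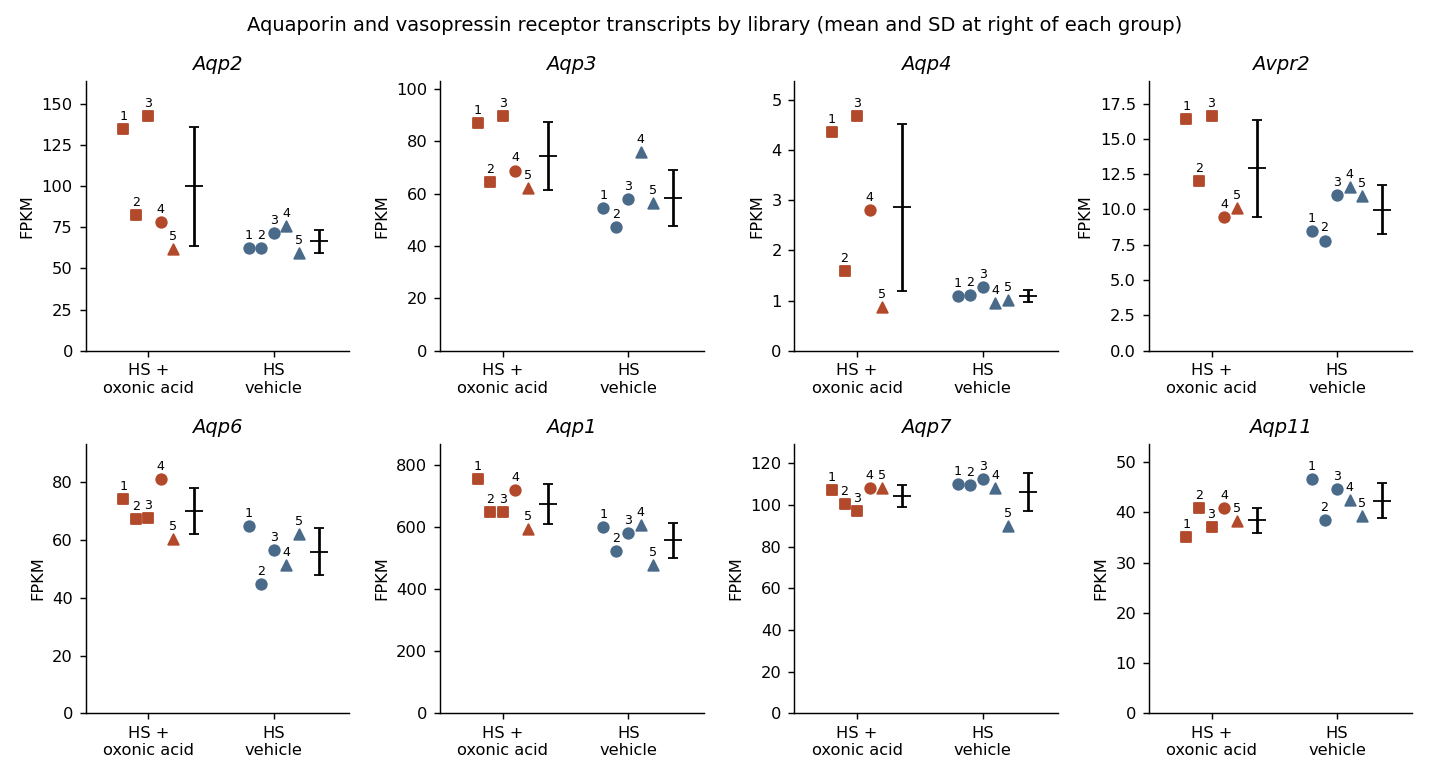
FPKM of each gene (vertical axes from 0) in the 5 HS + oxonic acid libraries (red) and the 5 HS vehicle libraries (blue), numbered as in the labels, with squares, circles and triangles for the number runs A, B and C and the mean with SD at the right of each group. Oxonic acid libraries 1 and 3 stand highest for Aqp2, Aqp3, Aqp4 and Avpr2, while for Aqp7 and Aqp11 they do not.

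Avpr2 encodes the Gs-coupled receptor through which vasopressin acts on the collecting duct. It measured 16.4, 11.997, 16.6, 9.46 and 10.1 FPKM in oxonic acid libraries 1 to 5, against 8.45, 7.80, 11.1, 11.6 and 10.97 FPKM in vehicle libraries 1 to 5. Oxonic acid libraries 1, 2 and 3, all of run A, lay above every vehicle library, and the other 2 fell inside the vehicle range. Means were 12.9 ± 3.41 FPKM under oxonic acid and 9.98 ± 1.72 FPKM under vehicle (SD, n = 5 each), which is 0.33 apart on the log2 scale (SE 0.17, limma adjusted p = 0.562; two-sided exact permutation test p = 0.143, unadjusted). The difference was 0.068 within run B and -0.16 within run C, 0.081 without oxonic acid libraries 1 and 3, and -0.038 with the runs as a factor.

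Aqp2 encodes the vasopressin-regulated apical water channel. Its values were 134.3, 82.3, 142.3, 78.2 and 61.4 FPKM in oxonic acid libraries 1 to 5, against 62.6, 62.3, 71.7, 75.7 and 59.3 FPKM in vehicle libraries 1 to 5. Far above all others stood oxonic acid libraries 1 and 3, libraries 2 and 4 just above the highest vehicle library, and library 5 near the bottom of the vehicle range. The mean was 99.7 ± 36.2 FPKM under oxonic acid and 66.3 ± 6.99 FPKM under vehicle (SD, n = 5 each), which is 0.52 apart on the log2 scale (SE 0.21, limma adjusted p = 0.489; two-sided exact permutation test p = 0.0556, unadjusted). The SD with oxonic acid was 5.18 times that with vehicle. Without oxonic acid libraries 1 and 3 the log2 difference was 0.15, with the runs as a factor it was 0.077, and within runs B and C it was 0.26 and -0.12.

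Aqp3, a basolateral channel for water and glycerol, measured 86.8, 64.4, 89.6, 68.9 and 62.2 FPKM in oxonic acid libraries 1 to 5, against 54.6, 47.1, 58.0, 76.0 and 56.3 FPKM in vehicle libraries 1 to 5. The highest were again oxonic acid libraries 1 and 3, and vehicle library 4 exceeded the other 3 oxonic acid libraries. Means of 74.4 ± 12.9 FPKM under oxonic acid and 58.4 ± 10.7 FPKM under vehicle (SD, n = 5 each) lay 0.35 apart on the log2 scale (SE 0.14, limma adjusted p = 0.479; two-sided exact permutation test p = 0.0635, unadjusted). The difference was 0.17 without oxonic acid libraries 1 and 3, 0.16 with the runs as a factor, 0.37 within run B and -0.071 within run C.

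Aqp4, the second basolateral water channel, had the lowest level of the 8 genes and the widest spread relative to its mean. It measured 4.36, 1.59, 4.67, 2.81 and 0.878 FPKM in oxonic acid libraries 1 to 5, against 1.099, 1.11, 1.26, 0.948 and 1.01 FPKM in vehicle libraries 1 to 5. The vehicle libraries lay close together, 4 oxonic acid libraries lay above all of them, and oxonic acid library 5 lay below all of them. Means were 2.86 ± 1.66 FPKM under oxonic acid and 1.09 ± 0.120 FPKM under vehicle (SD, n = 5 each), and the SD differed by 13.8 times. The log2 difference of 0.92 (SE 0.32) did not pass (limma adjusted p = 0.417; two-sided exact permutation test p = 0.0476, unadjusted). It was 0.42 without oxonic acid libraries 1 and 3, 0.48 with the runs as a factor, 0.999 within run B and -0.10 within run C.

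All 10 principal cell markers had higher means with oxonic acid, 0 passed after adjustment, and the median log2 difference was 0.26. An unadjusted p under 0.05 was reached by 4 (Scnn1g, Fxyd4, Tmem45b and Cdh16), against 4.32% of all genes in that direction. The 10 summed to 503.8 to 558.0 FPKM under oxonic acid and 388.0 to 520.2 FPKM under vehicle. Most of that came from Hsd11b2 and Cdh16, the latter at 257.1 ± 11.6 FPKM under oxonic acid and 228.0 ± 13.9 FPKM under vehicle (SD, n = 5 each). Cdh16, the kidney cadherin gene, was also among the 3 genes closest in pattern to the intercalated cell gene Aqp6. Bulk tissue does not show which cells made the Cdh16 transcript, so the sums may not measure principal cells alone. The sodium channel subunits Scnn1b and Scnn1g measured 15.8 ± 0.280 and 14.5 ± 1.19 FPKM under oxonic acid, against 13.7 ± 2.47 and 11.7 ± 1.83 FPKM under vehicle (SD, n = 5 each). Fxyd4, a regulator of the collecting duct sodium pump, measured 22.7, 8.04, 17.9, 8.35 and 4.96 FPKM in oxonic acid libraries 1 to 5, against 5.14 to 6.98 FPKM over the vehicle libraries. Oxonic acid libraries 1 and 3 held the 2 highest values of 2 of the 10 markers, Fxyd4 and Scnn1g, as they did for Aqp2. The other 8 did not share that pattern, and Scnn1b and Hsd11b2 were highest in vehicle library 5, at 17.4 and 194.2 FPKM. The cortisol- and corticosterone-inactivating enzyme gene Hsd11b2 had 171.7 ± 9.60 FPKM under oxonic acid and 158.4 ± 28.9 FPKM under vehicle.

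**Figure D2:**
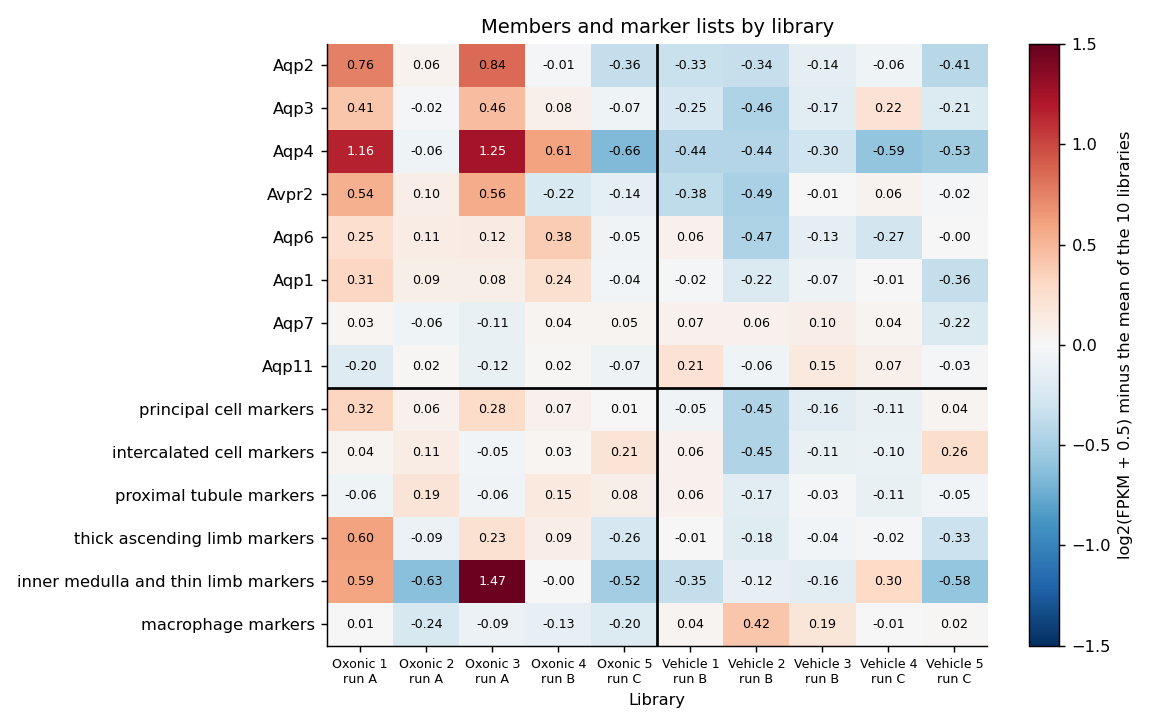
Log2(FPKM + 0.5) minus its mean over the 10 libraries for the 8 genes (top) and the mean of the same over 6 marker lists (bottom), with HS + oxonic acid libraries on the left and HS vehicle libraries on the right. The cells with the highest values are those of Aqp4 in oxonic acid libraries 1 and 3, at 1.16 and 1.25, and of the inner medulla and thin limb list in oxonic acid library 3, at 1.47.

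Of the 8 inner medulla and thin limb markers tested, 7 had higher means with oxonic acid, with a median log2 difference of 0.45, and 4 had their 2 highest values in oxonic acid libraries 1 and 3. None passed, and 1, Cldn4, had an unadjusted p under 0.05, in the lower direction, against 5.17% of all genes. The transporter gene Slc4a11 measured 4.43 and 6.30 FPKM in oxonic acid libraries 1 and 3 and at most 2.05 FPKM elsewhere. The small heat shock gene Cryab averaged 117.6 ± 43.3 FPKM under oxonic acid and 89.1 ± 31.01 FPKM under vehicle (SD, n = 5 each). With the level of this list as a covariate, the log2 differences were 0.33 for Aqp2, 0.24 for Aqp3, 0.66 for Aqp4 and 0.22 for Avpr2, all with limma adjusted p above the threshold, and the same 5 members as without it had an unadjusted p under 0.05. Thick ascending limb markers had higher means in 7 of 8 cases, with a median log2 difference of 0.20. Their mean level was highest in oxonic acid library 1 (0.60 relative to the 10 libraries) and library 3 (0.23). Only 2 of the 8 had their 2 highest values in those libraries. None passed, and 1, Egf, had an unadjusted p under 0.05, in the higher direction, against 4.32% of all genes. Umod (uromodulin), of the same list, measured 1620.8 ± 473.4 FPKM under oxonic acid and 1332.5 ± 252.9 FPKM under vehicle (SD, n = 5 each). The part of medullary tissue in the higher Aqp2, Aqp3, Aqp4 and Avpr2 values of oxonic acid libraries 1 and 3 was not tested beyond that covariate.

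Of the 28 pairs among the 8 genes, 17 had a positive Pearson r over the 10 libraries, and 3 pairs passed Benjamini-Hochberg adjustment over the 28 pairs for both r and Spearman's rho (permutation tests with 100000 resamples). For Aqp2 and Aqp4, r was 0.92 (permutation p = 0.00079, adjusted p = 0.0103) and rho 0.83 (permutation p = 0.00463, adjusted p = 0.0416). Aqp2 and Aqp3 gave r = 0.88 (permutation p = 0.00067, adjusted p = 0.0103) and rho = 0.82 (permutation p = 0.00571, adjusted p = 0.0416). Aqp3 and Avpr2 likewise gave r = 0.88 (permutation p = 0.0011, adjusted p = 0.0103) and rho = 0.82 (permutation p = 0.00595, adjusted p = 0.0416). For each pair, oxonic acid libraries 1 and 3 were the 2 farthest from the median. Without them r was 0.64 (exact permutation p = 0.0513, n = 8) for Aqp2 and Aqp4 and 0.68 (exact permutation p = 0.0621, n = 8) for Aqp2 and Aqp3. It was 0.67 (exact permutation p = 0.0708, n = 8) for Aqp3 and Avpr2, and none of the 3 passed. Over the vehicle libraries alone, without a test, r was 0.021 for Aqp2 and Aqp4, 0.77 for Aqp2 and Aqp3 and 0.79 for Aqp3 and Avpr2. For Aqp2 and Avpr2, r was 0.88 (permutation p = 0.00205, adjusted p = 0.0143) but rho 0.72 (permutation p = 0.0231, adjusted p = 0.0922). Without oxonic acid libraries 1 and 3 its r was 0.51 (exact permutation p = 0.198, n = 8). Aqp1 and Aqp2, a pair across segments, passed for rho only. Its rho was 0.85 (permutation p = 0.0031, adjusted p = 0.0416) and its r 0.70 (permutation p = 0.0254, adjusted p = 0.0718). Without the 2 libraries farthest from the Aqp1 median, oxonic acid library 1 and vehicle library 5, its r was 0.49 (exact permutation p = 0.225, n = 8). The other 2 pairs among Aqp2, Aqp3, Aqp4 and Avpr2 passed for neither measure. Aqp3 and Aqp4 gave r = 0.76 (permutation p = 0.0114, adjusted p = 0.0641) and rho = 0.53 (permutation p = 0.123, adjusted p = 0.239), with r = 0.29 without oxonic acid libraries 1 and 3 (exact permutation p = 0.476, n = 8). Aqp4 and Avpr2 gave r = 0.72 (permutation p = 0.0231, adjusted p = 0.0718) and rho = 0.49 (permutation p = 0.153, adjusted p = 0.239), with r = -0.033 without them (exact permutation p = 0.941, n = 8). The permutations ran over both groups together, so a group difference in both genes of a pair enters r and rho. On deviations from the group means, without a test, r was 0.88 for Aqp2 and Aqp4, 0.81 for Aqp2 and Aqp3 and 0.83 for Aqp3 and Avpr2. It was 0.84 for Aqp2 and Avpr2, 0.60 for Aqp3 and Aqp4, 0.59 for Aqp4 and Avpr2 and 0.48 for Aqp1 and Aqp2. The number runs hold 3 or 4 libraries each, too few for a correlation within a run.

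**Figure D3:**
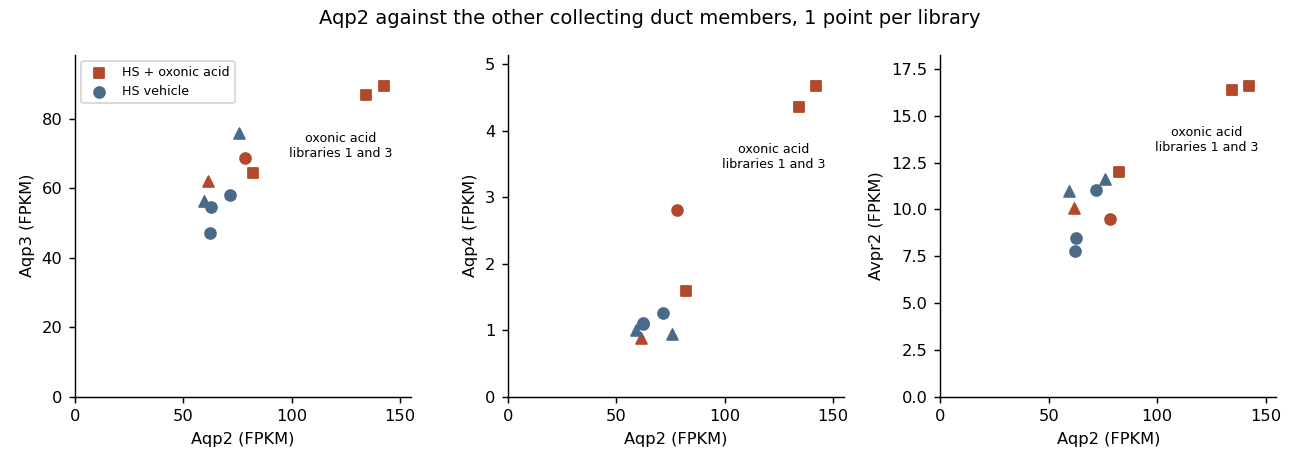
Aqp3, Aqp4 and Avpr2 (vertical axes, FPKM) against Aqp2 (horizontal axis, FPKM), 1 point per library, HS + oxonic acid in red and HS vehicle in blue, with squares, circles and triangles for the number runs A, B and C. Oxonic acid libraries 1 and 3 lie at the upper right of each panel, away from the other 8 libraries.

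Measured against the principal cell marker list, the group differences of Aqp2, Aqp3, Aqp4 and Avpr2 were each smaller by the same amount. The same marker level was subtracted from all 4, and it was itself higher with oxonic acid. The log2 level of each gene minus the mean log2 level of its markers, both taken relative to the 10 libraries, was compared for all 8 genes, without adjustment. Relative to 10 principal cell markers, Aqp2 averaged 0.11 ± 0.39 under oxonic acid and -0.11 ± 0.25 under vehicle (SD, n = 5 each; difference 0.22, two-sided exact permutation test p = 0.333). The differences were 0.055 for Aqp3 (exact permutation p = 0.675), 0.042 for Avpr2 (exact permutation p = 0.770) and 0.63 for Aqp4 (exact permutation p = 0.119). Aqp4 relative to these markers was 0.84, -0.12, 0.97, 0.54 and -0.67 in oxonic acid libraries 1 to 5, against -0.39, 0.017, -0.14, -0.47 and -0.57 in vehicle libraries 1 to 5. The groups overlapped for all 4 genes, and none of these tests passed. Leaving out 1 library moved the Aqp4 difference between 0.46 without oxonic acid library 3 (exact permutation p = 0.222) and 0.87 without oxonic acid library 5 (exact permutation p = 0.0159). The Aqp2 difference moved between 0.11 without oxonic acid library 3 (exact permutation p = 0.611) and 0.34 without oxonic acid library 5 (exact permutation p = 0.151), and was 0.14 without oxonic acid library 1 or without vehicle library 5. With the median of the markers in place of their mean, the difference was 0.30 for Aqp2 (exact permutation p = 0.294) and 0.13 for Aqp3 (exact permutation p = 0.341). It was 0.70 for Aqp4 (exact permutation p = 0.119) and 0.12 for Avpr2 (exact permutation p = 0.508).

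Aqp6, the intercalated cell channel, measured 74.1, 67.1, 67.5, 81.1 and 60.1 FPKM in oxonic acid libraries 1 to 5, against 64.8, 44.9, 56.6, 51.5 and 62.0 FPKM in vehicle libraries 1 to 5. Oxonic acid libraries 1 to 4 lay above every vehicle library and library 5 lay below 2 of them. The means of 70.0 ± 7.93 FPKM under oxonic acid and 55.9 ± 8.03 FPKM under vehicle (SD, n = 5 each) differed by 0.33 on the log2 scale (SE 0.11, limma adjusted p = 0.400; two-sided exact permutation test p = 0.0238, unadjusted). Its highest value stood in oxonic acid library 4, and its log2 difference was 0.31 without oxonic acid libraries 1 and 3. It was 0.34 with the runs as a factor, 0.56 within run B and 0.089 within run C.

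The median difference of the intercalated cell markers was smaller in value than the difference of Aqp6. Of the 12 tested, 9 had higher means with oxonic acid, with a median log2 difference of 0.10, and 0 passed. An unadjusted p under 0.05 was reached by 2 (Slc4a1 and Rhcg), both higher, against 4.32% of all genes in that direction. The anion exchanger Slc4a1 of the acid-secreting cells measured 39.0 ± 2.72 FPKM under oxonic acid and 29.4 ± 7.03 FPKM under vehicle, and the proton pump subunit Atp6v1b1 40.9 ± 2.24 and 38.3 ± 8.05 FPKM in these groups (SD, n = 5 each). The bicarbonate-secreting exchanger Slc26a4 measured 16.7 ± 2.38 and 18.1 ± 4.76 FPKM and the transcription factor Foxi1 12.3 ± 1.499 and 12.7 ± 2.33 FPKM, again under oxonic acid and vehicle (SD, n = 5 each). Relative to the 12 markers, Aqp6 averaged 0.096 ± 0.23 under oxonic acid and -0.096 ± 0.12 under vehicle (difference 0.19, two-sided exact permutation test p = 0.135). Leaving out 1 library moved that difference between 0.13 without oxonic acid library 4 (exact permutation p = 0.294) and 0.28 without oxonic acid library 5 (exact permutation p = 0.00794).

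Aqp1, the most abundant of the 8, measured 756.2, 650.5, 648.3, 721.4 and 595.1 FPKM in oxonic acid libraries 1 to 5, against 601.6, 524.5, 581.6, 606.7 and 477.8 FPKM in vehicle libraries 1 to 5. All vehicle libraries were exceeded by oxonic acid libraries 1 to 4, and library 5 lay below 2 of them. The means were 674.3 ± 64.1 FPKM under oxonic acid and 558.4 ± 55.6 FPKM under vehicle (SD, n = 5 each). The log2 difference of 0.27 (SE 0.087) did not pass (limma adjusted p = 0.397; two-sided exact permutation test p = 0.0238, unadjusted). It was 0.23 without oxonic acid libraries 1 and 3, 0.25 with the runs as a factor, 0.34 within run B and 0.14 within run C.

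Aqp7, the aquaglyceroporin of the straight proximal tubule, measured 107.2, 100.3, 97.1, 108.1 and 108.4 FPKM in oxonic acid libraries 1 to 5, against 110.04, 109.5, 112.5, 108.2 and 90.0 FPKM in vehicle libraries 1 to 5. All 5 oxonic acid values fell inside the vehicle range. Means were 104.2 ± 5.19 FPKM under oxonic acid and 106.1 ± 9.10 FPKM under vehicle (SD, n = 5 each), and the log2 difference was -0.022 (SE 0.067, limma adjusted p = 0.930). From 2 SE below to 2 SE above it, the fold ran from 0.898 to 1.08.

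Aqp11, the channel of the endoplasmic reticulum whose loss in mice gives polycystic kidneys, measured 35.0, 40.8, 37.1, 40.8 and 38.2 FPKM in oxonic acid libraries 1 to 5, against 46.6, 38.5, 44.7, 42.4 and 39.3 FPKM in vehicle libraries 1 to 5. Oxonic acid libraries 1, 3 and 5 lay below every vehicle library and the other 2 lay inside the vehicle range. The means were 38.4 ± 2.499 FPKM under oxonic acid and 42.3 ± 3.47 FPKM under vehicle (SD, n = 5 each), with -0.14 between them on the log2 scale (SE 0.067, limma adjusted p = 0.541; two-sided exact permutation test p = 0.0873, unadjusted). It was -0.079 within run B, -0.092 within run C and -0.078 without oxonic acid libraries 1 and 3.

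Proximal tubule markers framed these 3 genes. Of 12 markers, 9 had higher means with oxonic acid, with a median log2 difference of 0.083, and 0 had an unadjusted p under 0.05. Their log2 differences ran from -0.047 to 0.70, the largest being that of Slc7a13 (SE 0.35). The 12 did not vary as a unit. In oxonic acid library 1, Slc7a13 (1627.2 FPKM) and Slc3a1 (1630.2 FPKM) had their highest values, while Slc5a2 (115.9 FPKM) and Slc5a12 (56.7 FPKM) had their lowest. The endocytic receptor Lrp2 measured 268.8 ± 22.5 FPKM under oxonic acid and 243.4 ± 28.9 FPKM under vehicle, and the phosphate transporter Slc34a1 1773.6 ± 177.5 and 1662.4 ± 181.2 FPKM in these groups (SD, n = 5 each). The glucose transporter Slc5a2 measured 151.8 ± 29.8 and 157.7 ± 39.4 FPKM, and the lactate transporter Slc5a12 76.9 ± 16.2 and 74.3 ± 13.6 FPKM, likewise under oxonic acid and vehicle (SD, n = 5 each). Relative to the 12 markers, Aqp11 was -0.14, -0.17, -0.058, -0.12 and -0.15 in oxonic acid libraries 1 to 5, against 0.15, 0.11, 0.18, 0.19 and 0.011 in vehicle libraries 1 to 5. The groups did not overlap, and the difference of -0.26 had a two-sided exact permutation p of 0.00794, unadjusted and the smallest that this test can give with 5 libraries a group. Taking the median of the markers in place of their mean gave -0.21 (exact permutation p = 0.0635), which did not pass. For Aqp1 the difference from the same markers was 0.15 (exact permutation p = 0.262), and it was 0.080 without oxonic acid library 1 (exact permutation p = 0.508) and 0.095 without vehicle library 5 (exact permutation p = 0.437). For Aqp7 it was -0.14 (exact permutation p = 0.167), between -0.096 without oxonic acid library 2 (exact permutation p = 0.310) and -0.20 without vehicle library 5 (exact permutation p = 0.0397).

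**Figure D4:**
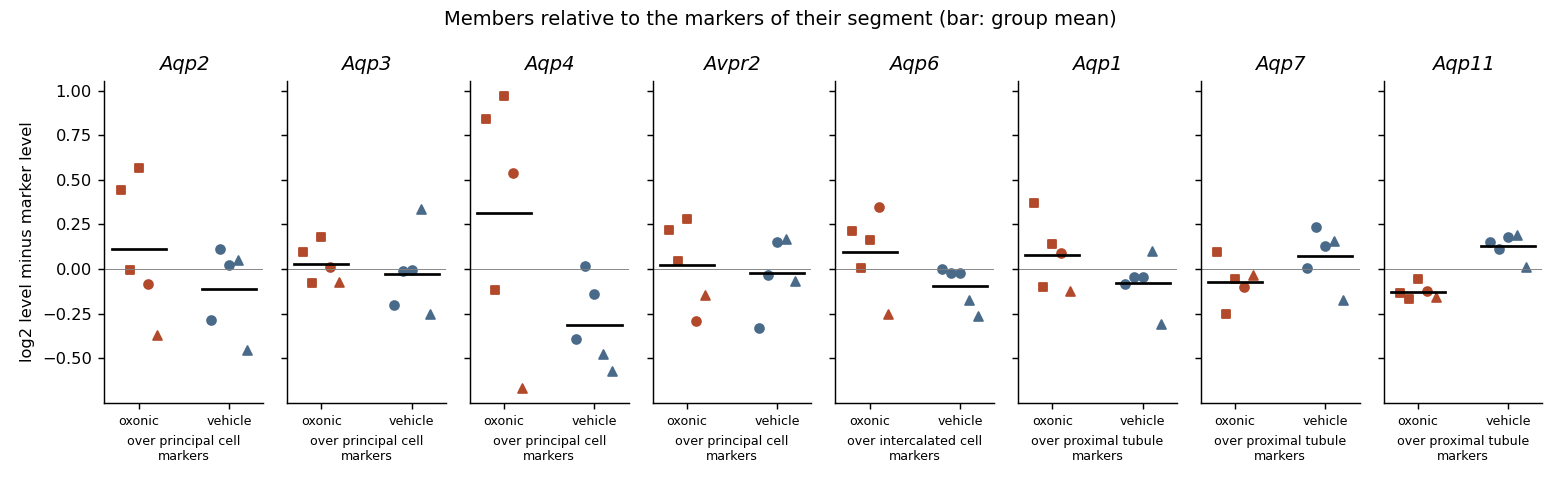
Log2 level of each gene minus the mean log2 level of the markers of its segment, both relative to the 10 libraries, with HS + oxonic acid (red) left of HS vehicle (blue), a black bar at each group mean, and squares, circles and triangles for the number runs A, B and C. The groups lie apart for Aqp11 and overlap for the other 7 genes.

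Of 31 genes of vasopressin and cAMP signalling tested, 21 had higher means with oxonic acid and 10 lower, 0 passed, and the log2 differences ran from -0.19 to 0.55 with a median of 0.075. An unadjusted p under 0.05 was found for 4 (Adcy6, Adcy5, Akap11 and Casr), all higher, against 4.32% of all genes in that direction. Named after their values were seen, Lnpep, whose enzyme cleaves vasopressin, differed by 0.55 (SE 0.28), the calcium-sensing receptor gene Casr by 0.41 (SE 0.18) and the endothelin receptor gene Ednrb by 0.34 (SE 0.19) on the log2 scale. Lnpep was low and its difference rested largely on 1 library. It measured 1.92 FPKM in oxonic acid library 4 and at most 0.599 FPKM in any other library. Gnas, the stimulatory G protein that couples the V2 receptor to adenylyl cyclase, measured 64.0 ± 2.32 FPKM under oxonic acid and 61.9 ± 1.46 FPKM under vehicle. Adcy6, the cyclase most tied to AQP2 in mouse collecting duct, measured 23.8 ± 1.502 and 21.2 ± 1.81 FPKM in these groups. The catalytic kinase subunit Prkaca had 29.7 ± 1.40 and 28.7 ± 1.71 FPKM, and the cAMP phosphodiesterase Pde4d 5.42 ± 0.712 and 4.997 ± 1.05 FPKM, under oxonic acid and vehicle (SD, n = 5 each).

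Genes of AQP2 vesicle traffic and turnover divided 10 higher to 17 lower, with a median log2 difference of -0.030. None of the 27 passed, and 1, Anxa2, had an unadjusted p under 0.05, lower with oxonic acid, against 5.17% of all genes in that direction. The recycling GTPase Rab11a measured 51.5 ± 2.52 FPKM under oxonic acid and 53.6 ± 4.99 FPKM under vehicle. The SNARE genes Vamp2, Stx3 and Snap23 had log2 differences of -0.012 (SE 0.057), -0.070 (SE 0.0702) and 0.0049 (SE 0.072). Transcription factors linked to Aqp2 had higher means in 13 of 15 cases, with a median of 0.15, and 0 passed. Nfat5, the tonicity-responsive factor that acts on Aqp2, measured 10.8 ± 1.37 FPKM under oxonic acid and 8.95 ± 1.20 FPKM under vehicle (SD, n = 5 each). Gata3 measured 8.01 ± 1.40 and 7.63 ± 1.11 FPKM, Elf3 26.2 ± 3.07 and 33.5 ± 6.87 FPKM, and Tfcp2l1 50.1 ± 3.80 and 42.1 ± 8.32 FPKM in these groups. An unadjusted p under 0.05 was found for Nfat5, Pax2 and Nr3c2, higher, and for Elf3, lower, against 4.32% and 5.17% of all genes in those directions.

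Endothelial and macrophage markers, cells outside the tubule, were also read. Endothelial markers had a median log2 difference of 0.11 over 9 genes, 7 of them higher and 2 lower (Tek and Egfl7), and 0 passed. An unadjusted p under 0.05 was reached by 2 (Kdr and Flt1), both higher, against 4.32% of all genes in that direction. Kdr, with the largest difference of the list, measured 11.9 ± 0.906 FPKM under oxonic acid and 9.48 ± 1.88 FPKM under vehicle (SD, n = 5 each). The log2 difference was 0.062 (SE 0.075) for Emcn and 0.11 (SE 0.17) for Ehd3. All 7 macrophage markers tested were lower with oxonic acid, with a median of -0.28, and 0 of them passed. An unadjusted p under 0.05 was reached by 4 (C1qa, C1qb, C1qc and Mrc1), against 5.17% of all genes in that direction. Macrophage markers summed to 124.0 to 161.4 FPKM under oxonic acid and 159.1 to 212.9 FPKM under vehicle, and their part in the aquaporin values was not tested.

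The genes whose pattern over the 10 libraries was most like each member were taken as the 3 with the highest Pearson r on log2(FPKM + 0.5) among 11510 named protein-coding genes with a mean of at least 1 FPKM. They are a description, without a p-value, and r here is picked as the highest of many. For Aqp2 they included Fxyd4 (r = 0.98) and the mucolipin gene Mcoln3 (0.95). For Aqp4 they included the corepressor Tle2 (0.97) and the sorting receptor Sort1 (0.96). Aqp3 was closest to the tight junction gene Ocln (0.93), Klhl7 (0.91) and Ndrg4 (0.91), and Avpr2 to Scx (0.90), Ctnnal1 (0.90) and Pcmtd1 (0.90). Aqp6 was closest to the cotransporter Slc12a2 (0.96), the kidney cadherin Cdh16 (0.94) and Sgpp2 (0.94). The proximal Aqp1 was closest to the mitochondrial mutase gene Mut (0.96), the outer membrane channel Vdac1 (0.95) and Nudt12 (0.95), Aqp7 to Tomm70a (0.93), Wdr31 (0.91) and Glt1d1 (0.90), and Aqp11 to Mettl1 (0.90), Frmd8 (0.87) and Lztr1 (0.86).

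**Figure D5:**
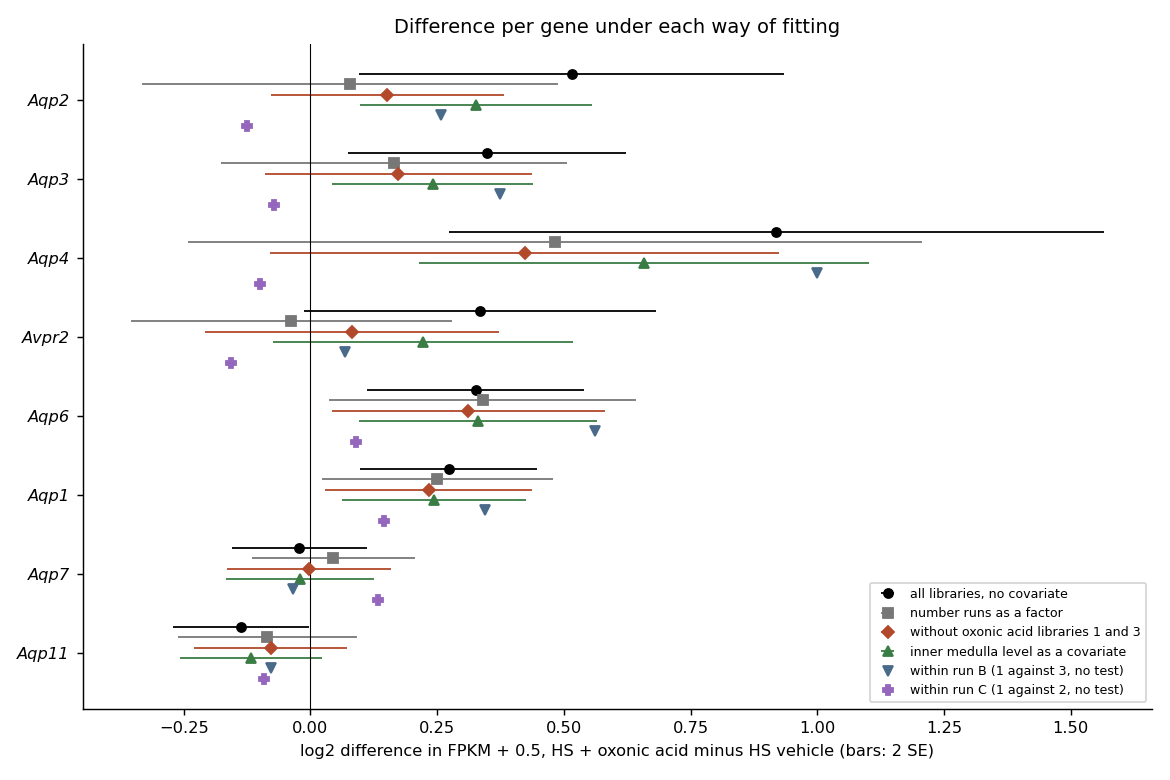
Log2 difference of FPKM + 0.5, HS + oxonic acid minus HS vehicle, for each gene with all libraries and under 5 other ways of fitting, with bars of 2 SE where a model was fitted. Aqp1 and Aqp6 stay above 0 in all 6, whereas Aqp2, Aqp3, Aqp4 and Avpr2 lie below 0 within run C, and Avpr2 also with the runs as a factor.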

How the data were processed

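RNA was extracted with Trizol and poly-A selected, per the labels' protocols, which describe directional and non-directional libraries without saying which was made. Tools named in the submitters' processing notes are featureCounts 1.5.0-p3, StringTie 1.3.3b, HISAT2 2.0.5 and fastp, and the sources used here name no build or annotation. The authors deposited FPKM per gene and library. FPKM times gene length gave whole reads within 0.01 for 100% of values, 14.5 to 18.5 M per library. Each column bears the library name that 1 sample gives as its description. Genes with a mean of at least 0.5 FPKM were tested on log2(FPKM + 0.5) with limma 3.58.1 (R 4.3.3, trended eBayes), two-sided, with Benjamini-Hochberg adjustment, and the procedure was tested on simulated data. Fold changes are on that scale, which understates low genes such as Aqp4. Single genes also had exact permutation tests (252 arrangements). Named genes are the 8 members, the first 4 of each list in its written order, all other aquaporins and the 3 closest genes by correlation; others are named where a count was small, after their values were seen. Some genes this rule names are not reported here. Members and lists were chosen with earlier results of these data known. For a list symbol with several rows, the row of highest mean was taken. All pairs of libraries differed beyond counting noise (chi-square over degrees of freedom at least 4.79). Python 3.11.15 and matplotlib 3.10.9 drew the figures.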

Additional observations from a re-analysis of the deposited data

Results flagged for a closer look

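In vehicle library 5, Aqp7 measured 90.0 FPKM, far below the other 4 vehicle libraries (108.2 to 112.5 FPKM), with a gap of 0.807 of the group's range. Of 32 groups checked for such a library (each gene's FPKM and its level relative to markers, in either group), 1 was marked, and chance marks about 1 in 20.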

How the results depend on the processing

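For the 8 genes, no limma adjusted p fell under 0.05 in any alternative (pseudocounts, filters, scaling to summed reads with and without mitochondrial transcripts, voom on the recovered reads, runs as a factor, each library left out). Scaled to summed reads, Aqp11 was -0.17 (limma unadjusted p = 0.0228), and -0.15 without mitochondrial transcripts (limma unadjusted p = 0.0369). Over all 14508 genes, 1190 and 900 were lower at an unadjusted p under 0.05 with these scalings, against 750 in the main fit. Within run C the sign turned for Aqp2 (-0.12), Aqp3 (-0.071), Aqp4 (-0.10), Avpr2 (-0.16) and Aqp7 (0.13). Aqp6 was 0.56 within run B and 0.089 within run C. With the runs as a factor Aqp7 was 0.045 and Avpr2 -0.038; the cause was not tested. Leaving out 1 library at a time moved Aqp7 between -0.080 and 0.0026, Aqp2 between 0.37 and 0.67, and Aqp4 between 0.72 and 1.20. The count of genes called over the table ran from 0 to 1 when single libraries were left out, 1 without vehicle library 1.

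Relative to markers, leaving out 1 library moved Aqp1 between 0.080 and 0.20, Aqp2 between 0.11 and 0.34, Aqp11 between -0.29 and -0.24, Aqp3 between -0.0019 and 0.14, Aqp4 between 0.46 and 0.87, Aqp6 between 0.13 and 0.28, Aqp7 between -0.20 and -0.096 and Avpr2 between -0.035 and 0.12. With the median of the markers Aqp11 was -0.21 (exact permutation p = 0.0635). With the replicate number as a block, 0 genes were called, as without it, and the log2 difference of Aqp2 was again 0.52 (limma adjusted p = 0.434). Same-numbered samples correlated at -0.013 to 0.203 in their deviations from the group means, and 1 of 5 numbers correlated best with its own, so the numbers were not taken as pairs. Depth limits Aqp4 most, at 69 to 414 reads. Leaving out oxonic acid libraries 1 and 3 together and the inner medulla covariate were chosen after seeing the data.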
